A study of Mus musculus with 8 samples.

Results

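The elastic fibre genes considered here are 10: the fibulins Fbln1, Fbln2, Fbln5, Efemp1 (fibulin-3) and Efemp2 (fibulin-4), the fibrillins Fbn1 and Fbn2, elastin (Eln), and the microfibril-associated glycoproteins Mfap2 and Mfap5. They were chosen as a family by function, and because Fbln2 was already known to be among the genes with the highest values in Nd2-mutant cells relative to control cells. The array holds 25697 probes with 18138 gene symbols, and 15 of these probes carry the symbols of 9 of the 10 genes. No probe carries the symbol Fbn2.

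RNA came from cultured fibroblasts dissociated from the skin of mice aged 12 months, with 1 MouseRef-8 v2.0 array for each of 8 mice. The Nd2-mutant strain was C57BL/6J-mtALR/LtJ (males 28 and 32, females 34 and 35) and the control strain was C57BL/6J-mtAKR/J (males 16 and 17, females 15 and 37). Both are conplastic strains, which share the C57BL/6J nuclear background and carry the mitochondrial DNA of another strain, so that every cell of the mutant mice has the altered mitochondrial Nd2, a subunit of respiratory chain complex I. The cells were used at passage 1, the labels name no sort, and cells were compared at a single age.

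Elastic fibres give skin, lung and arteries their recoil. Fibrillins polymerise into microfibrils, to which microfibril-associated glycoproteins bind, and tropoelastin is deposited on this scaffold and crosslinked by lysyl oxidases. Fibulins link the parts: fibulin-4 and fibulin-5 bring tropoelastin and the crosslinking enzymes together, and fibulin-2 binds fibrillin-1, tropoelastin and basement membrane proteins. Dermal fibroblasts are the main makers of these proteins in skin.

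The table of RefSeq promoters used here, on mouse build GRCm38.p6, holds start sites of 7 of the genes. The 250 bases before the start are printed for Fbln2 and Mfap2, the 2 genes with a tested probe without overlap between the strains. They run 5′ to 3′ on the strand of the gene, with GC boxes in capitals. A GC box was searched as GGGCGG on both strands. The window of Fbln2 lies at chr6:91212514-91212763 on the plus strand, and that of Mfap2 at chr4:141010431-141010680 on the plus strand. A second start of Mfap2 is listed upstream, with 0 GC boxes in its window.
Fbln2: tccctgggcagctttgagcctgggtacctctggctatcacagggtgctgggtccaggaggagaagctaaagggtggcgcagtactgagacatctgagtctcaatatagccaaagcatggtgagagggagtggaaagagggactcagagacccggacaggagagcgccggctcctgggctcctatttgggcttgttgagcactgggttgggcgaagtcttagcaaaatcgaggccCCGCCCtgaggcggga
Mfap2: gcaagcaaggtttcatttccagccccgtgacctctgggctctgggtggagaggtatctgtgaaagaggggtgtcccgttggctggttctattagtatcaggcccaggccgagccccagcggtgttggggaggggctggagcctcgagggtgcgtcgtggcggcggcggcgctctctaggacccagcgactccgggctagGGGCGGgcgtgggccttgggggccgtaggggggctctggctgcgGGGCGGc
A GC box was found in 9 of the 12 windows of the 7 genes and in 32.7% of all 32851 windows of the same length. Some windows of Efemp2 and of Fbln1 overlap, so the 12 are not separate. The TATA box letters TATAAA were found in 0 of the 12 windows and in 12.4% of all windows. The AP-1 letters TGANTCA were found in 1 of the 12, that of Efemp1, and in 6.75% of all. The E-box letters CANNTG were found in 6 of the 12 and in 66.2% of all. These are matches of letters and not binding sites. That table lists a single start for Fbln2, whereas its probes on the array are annotated to 2 transcript variants.

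Intensities are given as deposited, quantile normalized and background subtracted, on a linear scale. Differences are those of the mean log2(intensity + 16), Nd2-mutant minus control, with the standard error (SE). A probe was tested with limma if its detection p-value was under 0.01 on all 4 arrays of at least 1 strain, which held for 10414 probes of the array and for 13 member probes of 7 genes. Detected probes numbered 10973 to 11350 per Nd2-mutant array and 10663 to 10837 per control array. Correlated with the 7 others over the tested probes, the array from control mouse 15 averaged 0.934, and each of the rest averaged between 0.963 and 0.974. Strain and sex differences of members that rest on this mouse are given with and without it. Values of single genes outside the family are given only with it.

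The cultures carried the markers of fibroblasts: 12 of 12 markers were detected and 11 of them on all 8 arrays, with summed intensities of 35580 to 41330 in Nd2-mutant and 30250 to 43940 in control mice. Of these 12, 8 had higher means in Nd2-mutant cells, where 46.4% of all tested genes did, with a median log2 difference of 0.15. Of the 10 markers of smooth muscle cells, pericytes and myofibroblasts, 8 could be tested. All 8 had lower means in Nd2-mutant cells, where 53.6% of all tested genes did, with a median log2 difference of -0.59. None passed the adjusted threshold, and each of the 8 overlapped between the strains. The summed intensity of the list was 12880 to 15540 in Nd2-mutant and 16100 to 18300 in control mice, without overlap. Most of that sum was Acta2. Cnn1 and Rgs5, which help to define these cells, were detected on 0 arrays. The part of these markers in the results on elastic fibre genes was not tested. In such cultures, fewer cells of a type and less RNA per cell cannot be told apart. Macrophage markers summed to 1467 in Nd2-mutant mouse 35 and to between 204 and 545 on the other 7 arrays, with their part not tested either. Of the 5 tested macrophage markers, 4 had higher means in Nd2-mutant cells, with a median log2 difference of 0.68. Endothelial and Schwann cell markers had their highest sums in control mouse 15, 484.5 and 129.9, beside at most 354.8 and 56.5 on the other arrays, and their part was not tested. Keratinocyte markers summed to 198 to 1149 in Nd2-mutant and 314 to 932 in control mice. The sums of adventitial fibroblast and chondrocyte markers overlapped between the strains. Markers of melanocytes and adipocytes summed to at most 41.0 on any array.

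Of the fibulins, Fbln2 had the widest separation between the strains, and it was seen with 1 of its 3 probes. Fibulin-2 is a secreted glycoprotein of basement membranes and fibrillin microfibrils, and its messenger RNA is spliced into forms with and without an EGF-like module. The array file places all 3 probes on chromosome 6. Probe ILMN_2626153, annotated to transcript variant 1, had intensities of 319 (mouse 28), 152 (mouse 32), 223 (mouse 34) and 213 (mouse 35) in Nd2-mutant cells, and of 36.2 (mouse 15), 36.1 (mouse 16), 88.8 (mouse 17) and 120 (mouse 37) in control cells. Every Nd2-mutant value lay above every control value, and within the control strain mice 15 and 16 were lower than mice 17 and 37. The means were 227 ± 69.2 (SD, n = 4) and 70.3 ± 41.5 (SD, n = 4), a ratio of 3.23 and a log2 difference of 1.58 (SE 0.33). The gene was selected on this difference, so that no test is given for it. Within males the log2 difference was 1.68 and within females 1.47.

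The 2 probes annotated to transcript variant 2 did not show this separation. The variants are those named in the probe annotation. Probe sequences were not used, so whether a probe reads a single variant was not tested. Probe ILMN_1245307 had 8766 (mouse 28), 8693 (mouse 32), 10114 (mouse 34) and 8476 (mouse 35) in Nd2-mutant cells and 10610 (mouse 15), 7243 (mouse 16), 8766 (mouse 17) and 8341 (mouse 37) in control cells. The strains overlapped, and both the highest and the lowest value came from control mice. The log2 difference was 0.05 (SE 0.15), with a 95% confidence interval from -0.28 to 0.39. Probe ILMN_3132949 had means of 917 ± 98.4 and 1038 ± 155 (SD, n = 4 each), and its log2 difference was -0.17 (SE 0.15), with a 95% confidence interval from -0.51 to 0.17.

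The separation of the variant 1 probe can also be written as a ratio within each array, which restates the selected difference and is no further evidence of it. The log2 ratio of ILMN_2626153 to ILMN_1245307 was -4.71, -5.70, -5.40 and -5.21 in Nd2-mutant mice 28, 32, 34 and 35, and -7.67, -7.12, -6.39 and -5.94 in control mice 15, 16, 17 and 37. Its ratio to ILMN_3132949 ranged from -2.49 to -1.31 in Nd2-mutant and from -4.56 to -2.74 in control mice. These ratios compare arrays and say nothing of how much of each transcript a cell held, since probes differ in brightness.

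**Figure D1:**
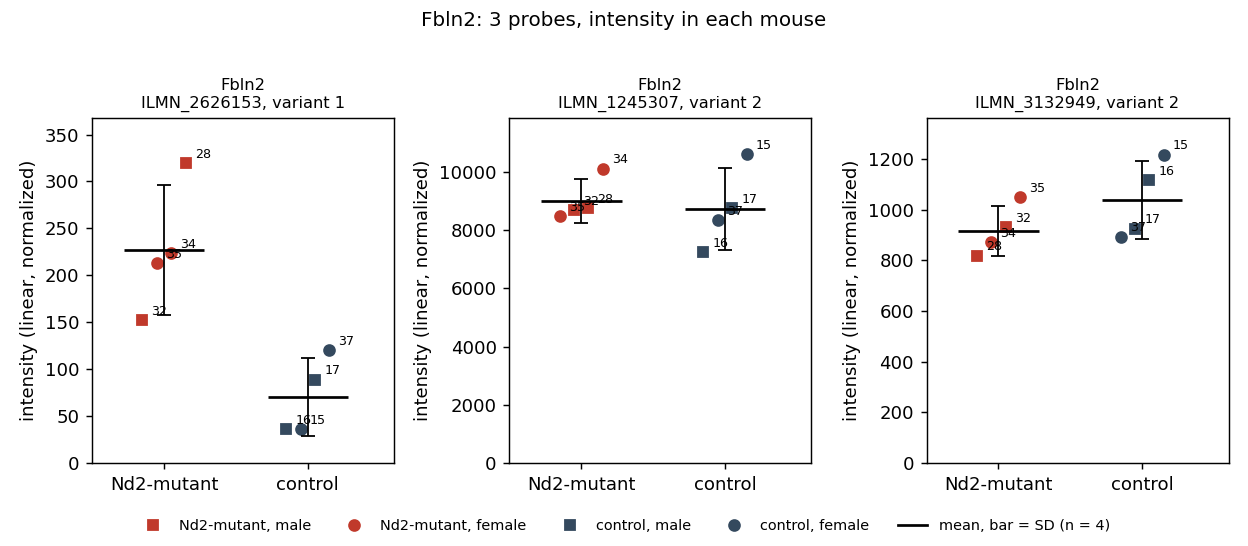
Normalized intensity (linear scale) of the 3 Fbln2 probes in each mouse, by strain, with mouse numbers beside the points, squares for males and circles for females. Lines mark the mean and bars the SD of 4 mice. With the variant 1 probe all Nd2-mutant mice (152 to 319) sit above all control mice (36.1 to 120), and with both variant 2 probes the strains overlap.

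The deviations of the variant 1 probe from its strain means were set against those of all other tested genes over the 8 arrays. The 5 genes most like it were Col4a5, a chain of basement membrane collagen (Pearson's r = 0.993), Pmp22, a membrane protein of peripheral myelin (0.986), Ids, a lysosomal sulfatase (0.976), Ddx52 (0.973) and Abcf1 (0.971). They are the top of 8002 other genes ranked over 8 arrays that share their normalization, so high values are found by the ranking itself. The strain difference of these genes was 0.48 for Col4a5, 1.37 for Pmp22, 0.22 for Ids, 0.38 for Ddx52 and -0.01 for Abcf1 on the log2 scale. With the variant 2 probes of its own gene, the variant 1 probe had r = -0.07 (ILMN_1245307) and r = -0.84 (ILMN_3132949).

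Fbln1 encodes fibulin-1, which binds fibronectin, laminin and the elastin core. On chromosome 15, 1 of its 3 probes had a higher mean in Nd2-mutant cells and the other 2 had log2 differences near 0. Probe ILMN_2728985 had 90.3, 112, 115 and 130 in Nd2-mutant mice 28, 32, 34 and 35 and 70.7, 48.3, 99.7 and 53.4 in control mice 15, 16, 17 and 37. Control mouse 17 lay above Nd2-mutant mouse 28, so that the strains overlapped. The log2 difference was 0.63 (SE 0.20). It was -0.07 (SE 0.24) for ILMN_2870672, with means of 1340 ± 146 and 1474 ± 559, and -0.06 (SE 0.19) for ILMN_2602770, with means of 23.9 ± 6.50 and 26.0 ± 9.67 (SD, n = 4 each).

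Efemp2 encodes fibulin-4, which is required for the crosslinking of elastin. Its probe on chromosome 19 had means of 2347 ± 118 in Nd2-mutant and 2705 ± 777 in control cells (SD, n = 4 each). Control mouse 15 had 3828 and the other 7 mice lay between 2126 and 2612. The log2 difference of -0.17 (SE 0.19) became 0.01 (SE 0.13) without that mouse. Fbln5, on chromosome 12, was detected on 0 of 8 arrays. Efemp1, on chromosome 11, was detected on 1 array, that of control mouse 37. No fold is given for either gene, as both strains lay at background.

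Fbn1, which encodes the main fibrillin of adult microfibrils, had 2449, 2318, 2889 and 3750 in Nd2-mutant mice 28, 32, 34 and 35 and 4206, 1950, 2389 and 2612 in control mice 15, 16, 17 and 37. The strains overlapped over nearly their whole range, and the log2 difference was 0.07 (SE 0.24). The highest values were those of control mouse 15 and Nd2-mutant mouse 35, both female. The array names no chromosome for this probe.

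Eln, which encodes tropoelastin and lies on chromosome 5, was dim. Its intensities were 11.1, 16.9, 18.0 and 37.3 in Nd2-mutant mice 28, 32, 34 and 35 and 106, 19.8, 4.04 and 35.3 in control mice 15, 16, 17 and 37, and it was detected on 4 Nd2-mutant and 3 control arrays. The strains overlapped, and control mouse 15 stood far above the rest. The log2 difference was -0.37 (SE 0.46) and, without control mouse 15, 0.10 (SE 0.32).

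The microfibril-associated glycoproteins had higher means in Nd2-mutant cells with each of their 4 probes. Mfap2 encodes MAGP-1 and Mfap5 encodes MAGP-2, both of which bind fibrillin. Mfap2 probe ILMN_1240458, on chromosome 4, had 41.3, 33.8, 45.9 and 36.3 in Nd2-mutant mice 28, 32, 34 and 35 and 20.3, 7.03, 29.9 and 23.4 in control mice 15, 16, 17 and 37. The strains did not overlap, and the probe was detected on all Nd2-mutant and on 3 of the 4 control arrays. It passed the filter only through the Nd2-mutant arrays, where it was higher. The log2 difference was 0.65 (SE 0.21).

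The brighter Mfap2 probe ILMN_2981542 had 476, 476, 485 and 681 in Nd2-mutant mice 28, 32, 34 and 35 and 885, 291, 296 and 402 in control mice 15, 16, 17 and 37. Control mouse 15 was above every Nd2-mutant mouse and the other 3 control mice were below every one of them. Probe ILMN_2981545 had 138, 159, 190 and 253 against 323, 124, 116 and 118 in the same order of mice, with the same arrangement. The log2 differences were 0.31 (SE 0.31) and 0.21 (SE 0.31). Without control mouse 15 they were 0.66 (SE 0.18) and 0.54 (SE 0.18). Leaving out other single mice lowered them, at most to 0.14 for ILMN_2981542 (without control mouse 16). For ILMN_2981545 the lowest was 0.06 (without Nd2-mutant mouse 35).

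Mfap5, on chromosome 6, had 1615, 1454, 1688 and 1723 in Nd2-mutant mice 28, 32, 34 and 35 and 1468, 943, 1404 and 1390 in control mice 15, 16, 17 and 37. Only control mouse 15 reached into the Nd2-mutant range, just above mouse 32. The log2 difference was 0.33 (SE 0.17) and 0.39 (SE 0.16) without control mouse 15. It fell to 0.18 without control mouse 16, the lowest value when a single mouse was left out.

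**Figure D2:**
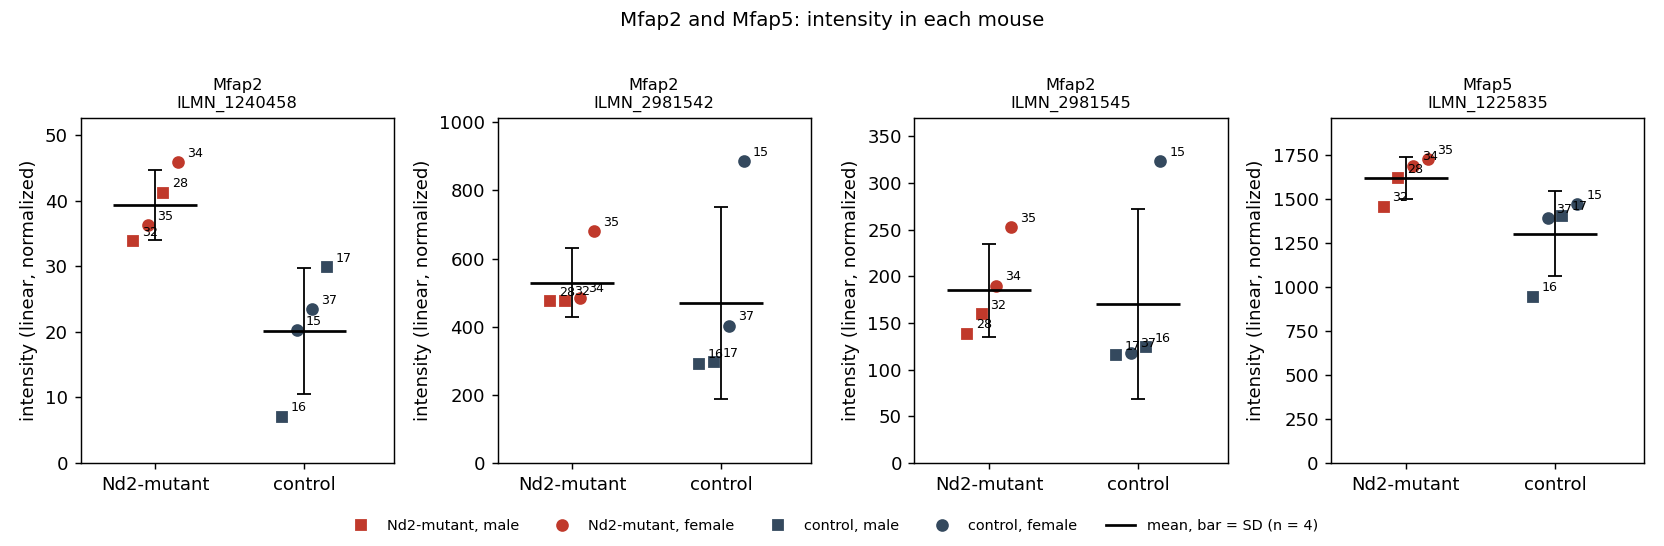
Normalized intensity (linear scale) of the 3 Mfap2 probes and the Mfap5 probe in each mouse, by strain, with mouse numbers beside the points, squares for males and circles for females. Lines mark the mean and bars the SD of 4 mice. With probes ILMN_2981542 and ILMN_2981545 control mouse 15 lies at the top, 885 and 323, and the other 3 control mice lie below all Nd2-mutant mice.

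Over the family, 8 of the 13 tested probes had a higher and 5 a lower mean in Nd2-mutant cells. The median log2 difference was 0.07, beside 0.00 over all tested probes. This median had no stable size or sign: it was 0.28 without control mouse 15, -0.03 without control mouse 16 and -0.02 in females alone. Of the 10 tested probes of the 6 genes other than Fbln2, 0 passed an adjusted p of 0.05 with limma, beside 0% of all tested probes, and their adjusted p ranged from 0.639 to 0.943. At an unadjusted p under 0.05, 2 of the 10 were higher, Mfap2 ILMN_1240458 and Fbln1 ILMN_2728985, beside 4.5% of all tested probes, and 0 were lower, beside 3.13%. The family was picked with this contrast known, and the median and the 8 of 13 include the Fbln2 variant 1 probe. Nothing is read from these values.

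The number of members without overlap depended on control mouse 15. With all 8 mice, 2 member probes lay without overlap higher in Nd2-mutant cells, Fbln2 variant 1 and Mfap2 ILMN_1240458, beside 2.24% of all tested probes, and 0 lay lower, beside 2.13%. Without control mouse 15, there were 5 of 13, the Fbln2 variant 1 probe, all 3 Mfap2 probes and Mfap5, beside 3.7% of 10494 tested probes, and 0 lower, beside 4.34%. The 3 Mfap2 probes measure 1 gene and are not separate observations. The Fbln2 variant 1 probe was selected on this difference. Mfap2 ILMN_1240458 passed the filter only through the Nd2-mutant arrays. Nothing is therefore read from these counts either. No probe of the array passed the adjusted threshold without control mouse 15 either, with a lowest adjusted p of 0.571 by limma.

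**Figure D3:**
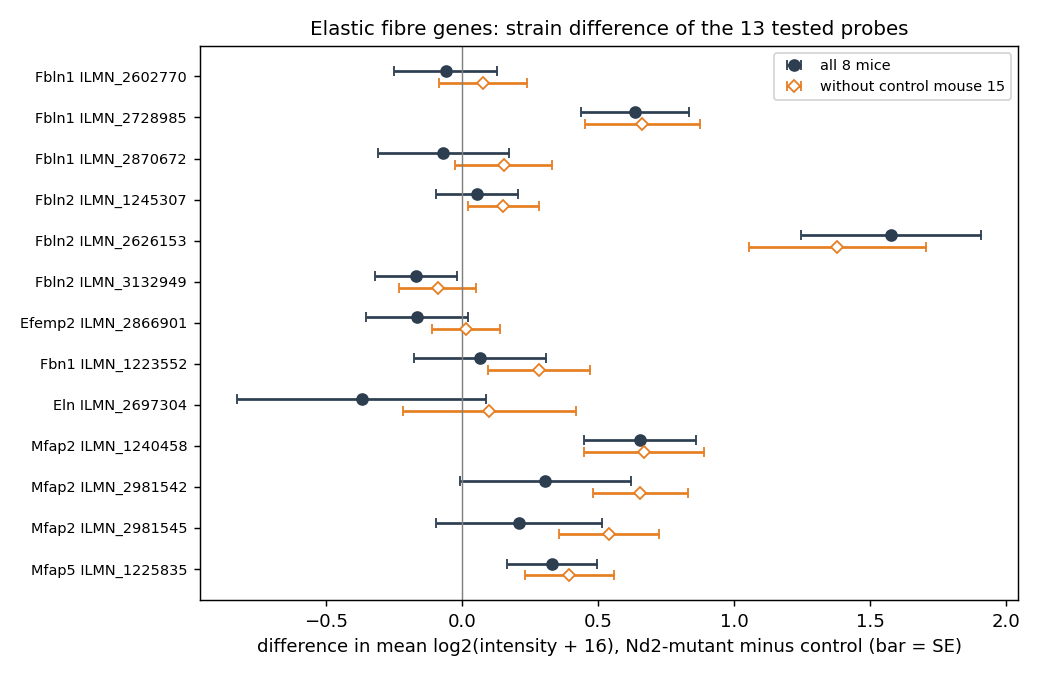
Difference in mean log2(intensity + 16), Nd2-mutant minus control, of the 13 tested member probes, with bars for the SE. Filled circles use all 8 mice and open diamonds leave out control mouse 15. The Fbln2 variant 1 probe lies at 1.58 and 1.38, and Eln and Efemp2 move from below 0 to 0.10 and 0.01.

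Single mice set the order of many of these genes. Control mouse 15 had the highest value of the 8 for 9 of the 13 tested probes, and control mouse 16 the lowest for 7. The median deviation of the 13 probes from the control means was 0.42 on the log2 scale in control mouse 15 and 0.42 in Nd2-mutant mouse 35, and it was -0.35 in control mouse 16. The Fbln2 variant 1 probe departed from this order in control mouse 15, at 36.2 beside 36.1 for control mouse 16, the lowest of the 8.

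Sex was not used to choose the genes. With strain as a term, 12 of the 13 tested probes were lower in males, with a median log2 difference (male minus female) of -0.16, whereas 47.6% of all tested probes were lower in males and their median was 0.01. Without control mouse 15, Efemp2 (0.014) and Fbln1 ILMN_2870672 (0.193) were no longer lower in males. In limma, 0 of the 13 passed an adjusted p of 0.05, beside 0.0192% of all tested probes, and the lowest adjusted p was 0.481, that of Eln. At an unadjusted p under 0.05 there were 4 of 13, from 3 genes, beside 8.31% of all. Members share arrays, so that a shift of 1 mouse moves several of them together.

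The 4 probes were those of Eln, Fbn1 and Mfap2. Fbn1 was the 1 member probe of 13 whose males all lay below the females, beside 2.67% of all tested probes. Its females had 4206 (control mouse 15), 2612 (control mouse 37), 2889 (Nd2-mutant mouse 34) and 3750 (Nd2-mutant mouse 35), and its males lay between 1950 and 2449. Its log2 difference was -0.54 (SE 0.18). Eln had a mean of 49.2 ± 39.1 in females and 12.98 ± 6.97 in males (SD, n = 4 each) and a difference of -1.04 (SE 0.34). Nd2-mutant mouse 34, a female with 18.0, lay below the male control mouse 16. Mfap2 had -0.63 (SE 0.26) with ILMN_2981542 and -0.58 (SE 0.26) with ILMN_2981545, and the sexes overlapped with both. Without control mouse 15 the differences were -0.68 for Eln, -0.39 for Fbn1, and -0.33 and -0.30 for the Mfap2 probes, and 2 of the 13 had an unadjusted p under 0.05, beside 9.3% of all probes tested without that mouse.

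**Figure D4:**
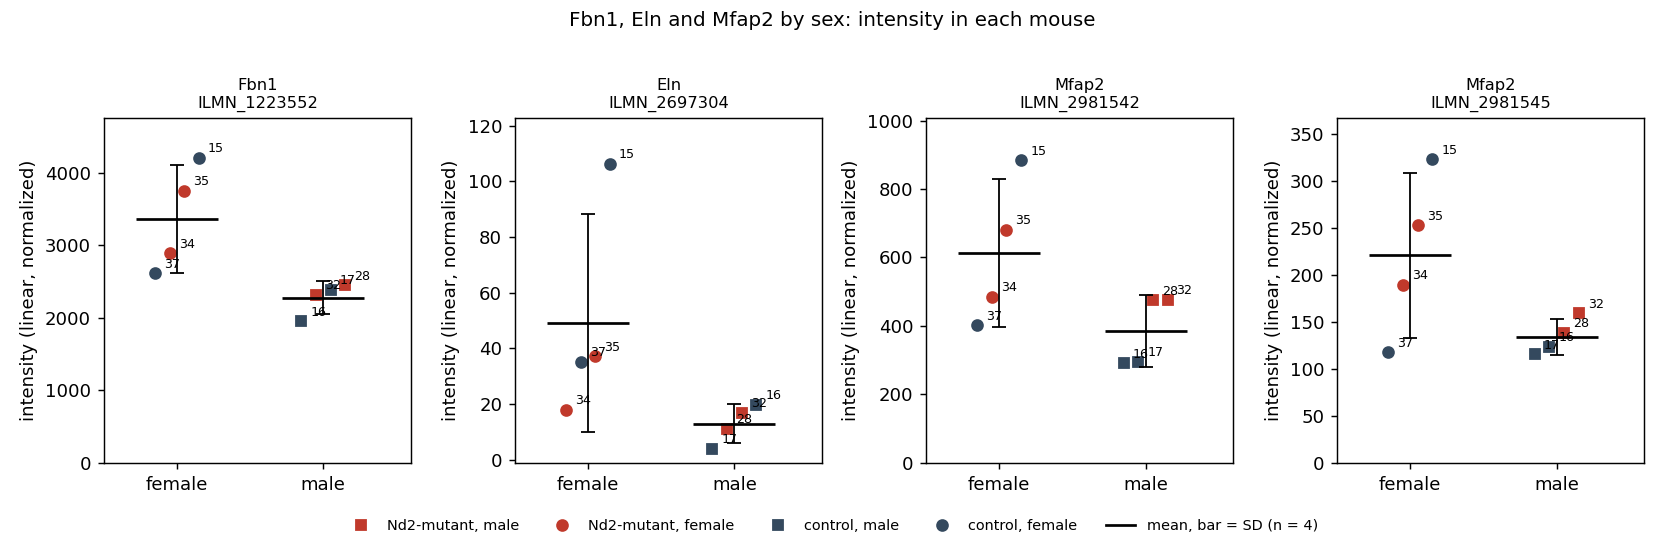
Normalized intensity (linear scale) of Fbn1, Eln and the 2 brighter Mfap2 probes in each mouse, by sex, with mouse numbers beside the points and colours for the strain. Lines mark the mean and bars the SD of 4 mice. Female mice 15 and 35 are the highest in each panel, and for Fbn1 all females lie above all males.

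Whether the strain difference of a member differed between the sexes was tested with the interaction of strain and sex. In limma 0 of the 13 probes passed, beside 0.0096% of all tested probes, and 0 had an unadjusted p under 0.05, beside 1.77%. Eln had the widest gap, with a log2 strain difference of 0.16 in males and -0.90 in females (interaction 1.05, SE 0.63). The female value includes control mouse 15. With 2 mice per strain and sex this comparison is imprecise.

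The other genes of elastic fibre biology were read from 3 lists of 64 genes, of which 56 are on the array and 41 could be tested, with the brightest tested probe for each gene. Of the 41, 19 were higher and 22 lower in Nd2-mutant cells, with a median log2 difference of -0.05, and over all 8003 tested genes 46.4% were higher and the median was -0.02. None of the 41 passed an adjusted p of 0.05 (lowest 0.639 by limma). A second tested probe had the opposite sign for Timp3, for Slc2a10, a glucose transporter family member mutated in arterial tortuosity (-0.07 and 0.11), and for the integrin chain Itga5 (-0.07 and 0.06). At an unadjusted p under 0.05, 0 were higher and 3 lower, Ltbp4, Timp3 and Mfge8, where 3.27% of all tested genes were higher and 3.54% lower.

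Among the assembly partners, 8 of 18 tested genes were higher and 10 lower, with a median of -0.04. Ltbp4, a latent TGF-beta binding protein that helps elastin deposition onto microfibrils, had 54.9, 86.6, 53.3 and 49.99 in Nd2-mutant mice 28, 32, 34 and 35 and 166, 103, 78.8 and 82.5 in control mice 15, 16, 17 and 37. Nd2-mutant mouse 32 lay within the control range and the other 3 below it, and the log2 difference was -0.65 (SE 0.23). A second tested Ltbp4 probe had -0.20 (SE 0.21), with overlap. The related Ltbp1, which holds latent TGF-beta in the matrix, had a difference of -0.66 (SE 0.36) with overlap. The other 2 tested members of that family, Ltbp2 and Ltbp3, had -0.17 and 0.02. On the other side lay Mfap4, a microfibril-associated protein, at 0.44 (SE 0.50), and Lox, the lysyl oxidase that crosslinks tropoelastin, at 0.30 (SE 0.16).

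Among elastolytic enzymes and their inhibitors, 6 of 12 were higher and 6 lower, with a median of -0.01. Timp3, a matrix-bound inhibitor of metalloproteinases, was without overlap lower with its brighter probe, between 2154 and 2566 in Nd2-mutant and between 2682 and 3445 in control mice, a log2 difference of -0.33 (SE 0.14). Its other probe had 0.15 (SE 0.20), the opposite sign. The gelatinases had 0.24 (SE 0.20) for Mmp2 and -0.32 (SE 0.29) for Mmp9, and the lysosomal protease Ctsl had 0.34 (SE 0.21).

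Among receptors and binding partners, 5 of 11 were higher and 6 lower, with a median of -0.07. Mfge8, a secreted integrin ligand, had means of 4750 ± 447 in Nd2-mutant and 6775 ± 1895 in control cells (SD, n = 4 each), a log2 difference of -0.48 (SE 0.19) with overlap. Its highest value, 9406, was that of control mouse 15. A second tested Mfge8 probe had -0.28 (SE 0.22), with overlap. The integrin chain Itgb5 had -0.37 (SE 0.21), the proteoglycan Sdc4 0.26 (SE 0.21) and the basement membrane linker Nid1 0.15 (SE 0.18). Dcn, the collagen-binding proteoglycan decorin, had 0.12 (SE 0.24) with its brighter probe. Its second probe was higher without overlap, at 1609 to 2136 in Nd2-mutant and 544 to 1500 in control mice, a log2 difference of 0.82 (SE 0.28).

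**Figure D5:**
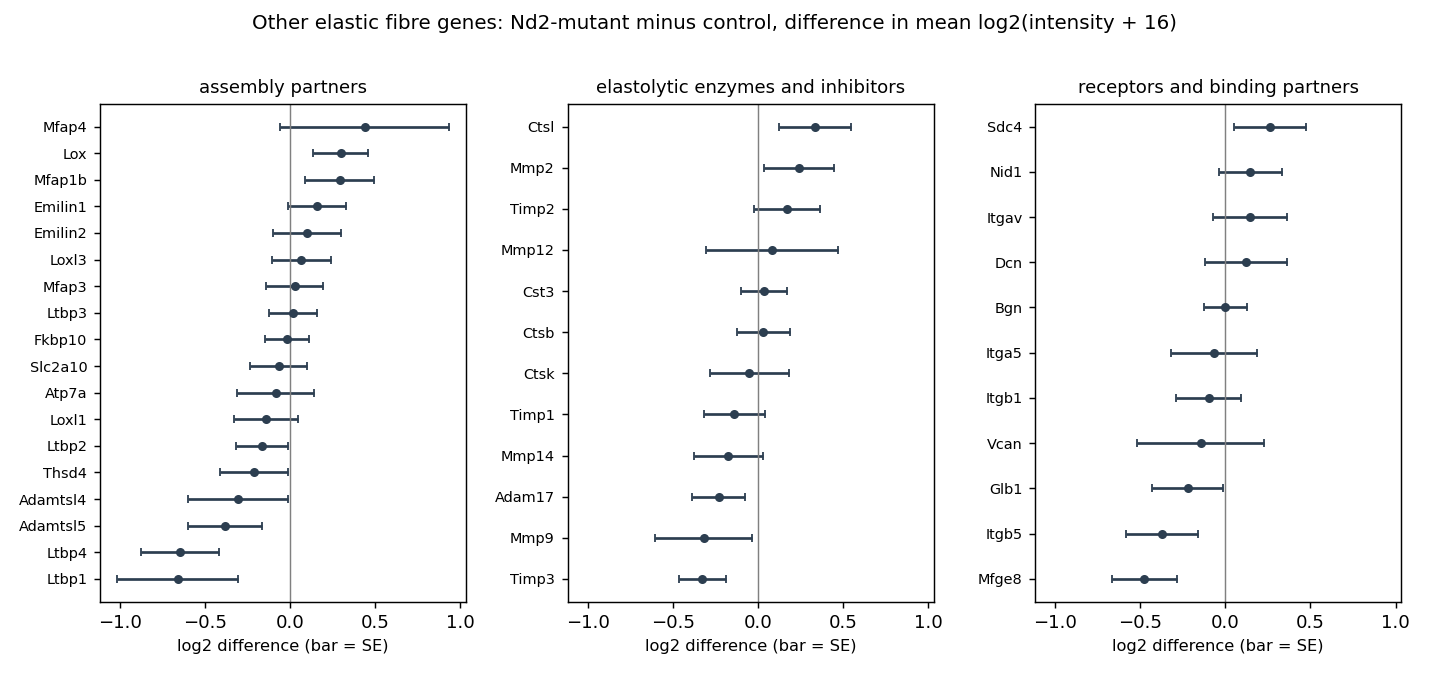
Difference in mean log2(intensity + 16), Nd2-mutant minus control, for the 41 tested genes of the 3 lists, sorted within each list, with bars for the SE. Values run from -0.66 (Ltbp1) to 0.44 (Mfap4), on both sides of 0 in each list.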

How the data were processed

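Total RNA of primary skin fibroblasts of 4 Nd2-mutant and 4 control mice was run on MouseRef-8 v2.0 arrays, 1 per mouse. The authors extracted the data in GenomeStudio (version not given in the sources used here), quantile normalized the intensities between arrays and subtracted the background. The deposited values are linear intensities, of which 26.2% are 0 or lower, each with a detection p-value from the authors' software. 2 deposited tables, named as normalized and non-normalized, hold the same bytes, so 1 was used. From the deposited intensities, log2 values were computed after setting values below 0 to 0 and adding 16, which understates differences of dim probes.

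Differences were tested with limma 3.58.1 (lmFit, eBayes) in R 4.3.3. P-values are 2-sided, adjusted by Benjamini-Hochberg across the 10414 probes tested, and called under 0.05. Mice are separate animals, and groups, sex and mouse number came from the labels. Arrays are precise only as far as their number allows. Sex was tested with strain as a term. The steps were tested on simulated data.

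The members, the 3 lists of other genes and the markers were chosen with earlier results of these data known. Every member is named. Of the other lists, genes with a tested probe at an unadjusted p under 0.05 or without overlap were named, with the 2 highest and 2 lowest differences of each list. The 5 genes most like Fbln2 were named by Pearson's r. For a gene with several tested probes the brightest stands, and the others are given where they disagree in sign, and also for Ltbp4, Mfge8 and Dcn. Older symbols were matched through RefSeq. Values were recomputed with 1 or 50 added, on the linear scale, with other filters, centring, a trend, array weights, sex as a term, each sex alone, the methods' t-test and without each mouse. Promoter windows are from RefSeq (GRCm38.p6). Probe and protein sequences were not used here.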

Additional observations from a re-analysis of the deposited data

Results flagged for a closer look

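In 3 of the 26 groups of 4 mice formed by the 13 tested probes and the 2 strains, 1 mouse lay apart from the others, judged by its gap to the nearest mouse as a share of the group's range (Dixon's test). Chance alone gives such a mouse in about 1 of 20 groups. Nd2-mutant mouse 35 lay apart for Mfap2 ILMN_2981542 (681 against 476 to 485), with a share of 0.953. Control mouse 15 lay apart for Mfap2 ILMN_2981545 (323 against 116 to 124), with 0.961. Control mouse 16 lay apart for Mfap5 (943 against 1390 to 1468), with 0.852.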

How the results depend on the processing

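The log2 strain difference of the Fbln2 variant 1 probe ranged from 1.16 with array weights to 1.84 without control mouse 37. The gene was selected on this difference, and the strains did not overlap with this probe. Its sign could therefore not change when mice were left out, and the range is no further evidence of it. The count of called member probes was 0 wherever it was computed: for strain (genes other than Fbln2) under all of them, and for sex and the interaction under those that apply, which leave out each sex alone, sex as a term and the methods' t-test. Over all probes 3 were called with no filter and 1 with the methods' t-test, beside 0. Unadjusted counts moved as follows. Over all probes 1587 had an unadjusted p under 0.05 for strain with no filter, 348 in females alone, and 436 to 1467 without 1 mouse, the ends being without control mice 16 and 17. Of the other elastic fibre genes there was 1 on the linear scale (627 of 10414 over all probes) and 1 in males alone (550 over all probes). Without 1 mouse there were 1 to 6. The 6 were without control mouse 17, where 1467 of all 10480 tested probes had such a p. Nothing is read from these counts. For sex, the member probes at that level numbered 1 on the linear scale (7.33% of all probes), 2 with no filter (6.78%), 2 with array weights (20.7%) and 1 to 4 without 1 mouse (4.79% to 17.3%). For the interaction the unadjusted count also moved when mice were left out. Every such omission leaves a cell of the design with 1 mouse, assumed to vary like the others, so these unadjusted counts are not given. Member probes without overlap numbered 2 to 5, the 5 without control mouse 15. There, 3.7% of all tested probes lay higher and 4.34% lower without overlap. For the other omissions and with no filter the share over all probes was not computed, so nothing is read from this range.

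Of the other 12 member probes, 5 kept the direction of their strain difference under every alternative, and 6 of 13 that of their sex difference; the cause was not tested. With array weights the strain difference was 0.023 for Efemp2, 0.142 for Fbln1 ILMN_2870672 and 0.086 for Fbln1 ILMN_2602770. In males alone it was 0.157 for Eln and 0.040 for Fbln1 ILMN_2602770. In females alone it was -0.023 for Fbln2 ILMN_1245307, -0.010 for Fbn1 and -0.055 for Mfap2 ILMN_2981542. Without 1 mouse it ranged from -0.267 to 0.014 for Efemp2, -0.770 to 0.100 for Eln, -0.166 to 0.078 for Fbln1 ILMN_2602770, -0.266 to 0.153 for Fbln1 ILMN_2870672, -0.031 to 0.152 for Fbln2 ILMN_1245307 and -0.085 to 0.282 for Fbn1. The sex difference of Fbln1 ILMN_2602770 was -0.0020 with 50 added and -0.018 on the linear scale, that of Fbln2 ILMN_2626153 was 0.00997 on the linear scale, and with array weights it was 0.116 for Fbln1 ILMN_2870672 and 0.0063 for Fbln2 ILMN_3132949. Without 1 mouse it ranged from -0.323 to 0.014 for Efemp2, -0.125 to 0.168 for Fbln1 ILMN_2602770, -0.256 to 0.083 for Fbln1 ILMN_2728985, -0.310 to 0.193 for Fbln1 ILMN_2870672, -0.340 to 0.213 for Fbln2 ILMN_2626153 and -0.341 to 0.057 for Mfap2 ILMN_1240458.

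No paired analysis was possible because no mouse number occurs in both strains. Neither normexp background correction nor a block for the chip was run, as non-normalized values and chip names were not used here. Dim probes, Eln and Mfap2 ILMN_1240458, lie close to background on some arrays, which limits their differences.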
